A study of Homo sapiens with 6 samples.

Results

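Messenger RNA of MDA-MB-231, a mesenchymal line of human breast cancer that lacks hormone receptors and HER2 amplification, was compared between cells depleted of PARP1 and EZH2 and control cells. The shEZH2 cells were PARP1 knockout (KO) cells with a short hairpin RNA (shRNA) against EZH2, and the control cells were wild type for PARP1 and carried a non-targeting shRNA. All were grown for 2 days in medium with 10% fetal bovine serum, and poly(A) RNA was sequenced with a stranded kit. The comparison took 4 of the 6 libraries of the study, 2 of each group. The other 2 libraries were of PARP1 KO cells with an shRNA against SUZ12 (shSUZ12). They entered the filter, the scaling, the removal of the trend with transcript length and the estimate of the spread. They were also contrasted directly with shEZH2, and some of their levels were set beside control. No group lacked PARP1 alone or had EZH2 alone targeted, so the share of each in any difference cannot be told apart. The labels do not say whether the KO cells were 1 clone or whether each library had its own culture. The p-values therefore cover only how these libraries spread, and that may be technical. In bulk RNA, fewer cells that express a gene and less RNA of it per cell cannot be told apart.

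EZH2 is the methyltransferase of Polycomb repressive complex 2 (PRC2); the histone H3 mark it places at lysine 27 helps keep developmental and lineage genes silent. EED and SUZ12 are its core partners, and Polycomb repressive complex 1 (PRC1) reads the mark through CBX proteins. PARP1 senses DNA strand breaks, builds poly(ADP-ribose) chains on itself and on chromatin proteins, and also acts in transcription. In breast cancer cells PARP1 is the target of PARP inhibitors, and EZH2 is often highly expressed.

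Gene counts per library were 20956245 and 20568174 in shEZH2 cells and 22782742 and 20843336 in control cells. Levels are given as CPM, the usual depth-scaled counts, on the effective library size, and values of a group are listed as replicate 1 and replicate 2. A floor of 3 counts lay at 0.135 to 0.153 CPM in these 4 libraries. The shEZH2 libraries stood apart from each other: their levels lay over 2-fold apart for 16.6% of the 14192 tested genes, against 4.12% between the control libraries and 2.18% between the shSUZ12 libraries. For that reason each result is given with the log2 difference of each shEZH2 library from the mean of the controls. Multimapping reads made up 8.27 and 10.4% of the shEZH2 libraries, against 7.21 and 7.64% of the control libraries.

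The targeted genes were examined first. PARP1 (chromosome 1, 226360691 to 226408079, minus strand, GRCh38) had 33.6 and 28.6 CPM in shEZH2 cells, against 425 and 361 CPM in control cells, and fell by 3.66 ± 0.20 (standard error, SE) on the log2 scale (edgeR quasi-likelihood p, adjusted by Benjamini-Hochberg, 0.000599; n = 2 in each group). EZH2 (chromosome 7, 148807383 to 148884321, minus strand) had 53.1 and 63.5 CPM in shEZH2 cells, against 199 and 188 CPM in control cells, and fell by 1.73 ± 0.18 (edgeR adjusted p = 0.00539). For both genes the libraries of the groups did not overlap, and the depletion was present in each shEZH2 library: the log2 difference was -3.54 in replicate 1 and -3.78 in replicate 2 for PARP1 and -1.86 in replicate 1 and -1.61 in replicate 2 for EZH2. The fall of EZH2 did not pass the edgeR test without control replicate 1 or without control replicate 2, at log2 fold changes of -1.67 and -1.78.

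Beyond EZH2, no PRC2 or PRC1 gene was called in the fit with both libraries, which does not show that none moved. The log2 fold changes of the 20 PRC1 genes ran from -0.85 to 1.29. Of 13 tested PRC2 genes 1 fell, EZH2 itself, and of 20 tested PRC1 genes 0 were called, against 6.74% of all tested genes. EED, which binds the methyl mark, had 53.3 and 53.6 CPM in shEZH2 cells, against 86.5 and 78.1 CPM in control cells, with a log2 fold change of -0.62 ± 0.17 that did not pass the edgeR test (adjusted p = 0.0714), though both libraries lay below both controls. SUZ12 had 130 and 53.1 CPM in shEZH2 cells, against 134 and 133 CPM in control cells. Its first shEZH2 library lay near the controls and its second far below them, with log2 differences of -0.04 in replicate 1 and -1.33 in replicate 2. EZH1, the paralog of EZH2, had 26.3 and 32.2 CPM in shEZH2 cells, against 22.3 and 28.7 CPM in control cells. The PRC1 gene with the highest mean CPM was PHC2, a Polyhomeotic scaffold, with log2 differences of 0.27 in replicate 1 and 0.66 in replicate 2 and a log2 fold change of 0.48 ± 0.18 (edgeR adjusted p = 0.151). Among 24 genes of ADP-ribosylation, PARP1, the knocked-out gene itself, and TIPARP fell and 22 did not pass the test (8.33% called, near the 6.74% of all tested genes). TIPARP, a mono-ADP-ribosyltransferase induced by the aryl hydrocarbon receptor, had 48.1 and 33.8 CPM in shEZH2 cells, against 89.8 and 78.0 CPM in control cells, and fell by 1.03 ± 0.22 (edgeR adjusted p = 0.0369). PARP2, the closest relative of PARP1 at DNA breaks, had 81.3 and 91.6 CPM in shEZH2 cells, against 80.7 and 79.9 CPM in control cells, with a log2 fold change of 0.11 ± 0.17 that did not pass the edgeR test (adjusted p = 0.724).

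Across all genes 957 of 14192 were called at an adjusted p under 0.05 in edgeR's quasi-likelihood test, which is 6.74% of those tested, with 503 higher (3.54%) and 454 lower (3.2%) in shEZH2 cells. The fit took 1 spread per gene for all groups, although the shEZH2 libraries differed more between themselves than those of the other groups. The error on the shEZH2 side may therefore be understated. With the 4 shEZH2 and control libraries alone, 216 genes were called. The 957 called log2 fold changes had a median size of 1.36, and the smallest was 0.68. Changes over 4-fold numbered 144 higher and 116 lower, and changes over 16-fold 48 higher and 32 lower. There were 15 called genes with 0 counts in both control libraries and 9 with 0 counts in both shEZH2 libraries. Leaving out 1 library changed this number: 7 genes were called when control replicate 1 was left out, 5 when control replicate 2 was, and 219 and 206 when shSUZ12 replicate 1 or 2 was. All 957 called genes had the same sign in both shEZH2 libraries, against 9532 of the 14192 tested genes. The calls were made from these same libraries, and a gene with opposite signs in them can hardly pass. The equal signs are therefore no separate check of the calls.

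The calls were then separated by library. Of the 957 called genes, 590 were past 2-fold from the control mean in each shEZH2 library (4.16% of tested genes), 306 higher (2.16%) and 284 lower (2%). A further 43 were past 2-fold only in replicate 1, of which 11 were higher and 32 lower. Past 2-fold only in replicate 2 were 121 higher and 96 lower, and 107 were past 2-fold in neither library. When each shEZH2 library was fitted alone, with the spread taken from the other groups, replicate 1 gave 4123 calls (2236 higher, 1887 lower; 28.3% of 14593 genes) and replicate 2 gave 7853 calls (3657 higher, 4196 lower; 53.6% of 14656 genes). Both libraries called 2687 genes in the same direction, 1403 higher and 1284 lower, and 301 in opposite directions. Of the 14192 genes tested with both libraries, 2675 were called in 1 direction by each alone (18.8%), which is 9.88% higher and 8.97% lower. Of the 957 genes called with both libraries together, 951 were also called in the same direction with each library alone. The 6 others were ID3 and TNS4, called with replicate 2 but not with replicate 1, ALDOC and GABRE, called with neither alone, and CGB8 and LOC101927727, which were tested with only 1 of the libraries. These single-library fits assume that the lone shEZH2 library varies like the shSUZ12 and control libraries. They share the libraries and controls of the fit with both. They also leave out the difference between the shEZH2 libraries, so they are no independent check of its calls.

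**Figure D1:**
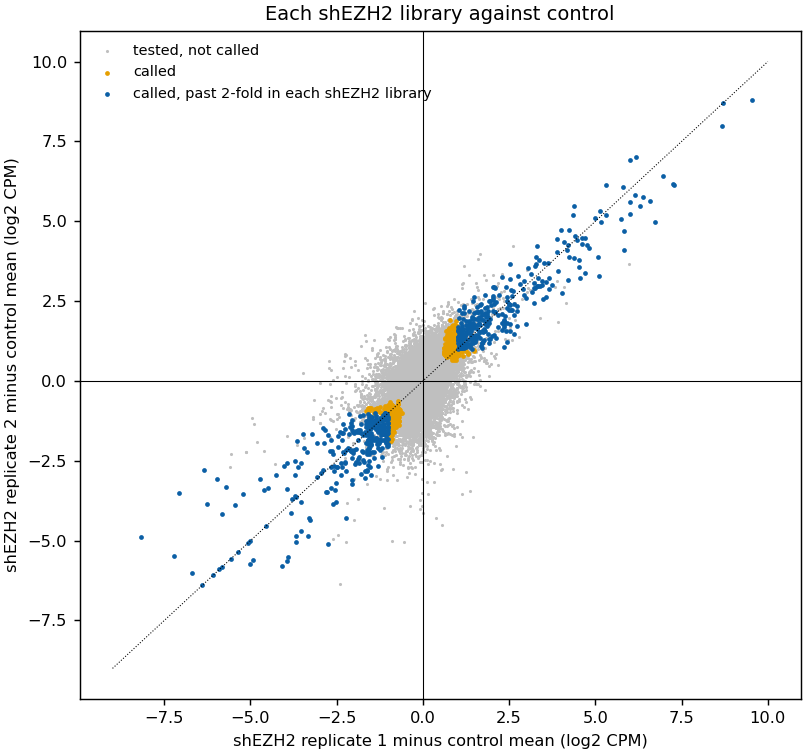
Log2 difference of each shEZH2 library from the control mean for the 14192 tested genes, replicate 1 on the horizontal axis and replicate 2 on the vertical axis. Blue points are the 590 called genes past 2-fold in each library, orange points the other called genes and grey points genes not called; the called genes lie in the quadrants of equal sign, while the grey cloud is taller than it is wide.

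The libraries differed with transcript length. Genes were split into 10 groups of equal size by transcript length. The length was that of the longest annotated protein-coding transcript, or of the longest transcript where a gene had no protein-coding one. In the shortest group (56 to 1394 bases) shEZH2 replicate 2 lay above replicate 1 by a median of 0.68 on the log2 scale, and in the longest group (7540 to 109224 bases) it lay below by a median difference of -0.83. The same difference between replicates ran from 0.03 to -0.07 in shSUZ12 cells and from -0.07 to 0.02 in control cells. Against the control mean, replicate 1 was flat over length, with medians of 0.06 in the shortest and 0.01 in the longest group. Replicate 2 carried the trend, with medians of 0.73 in the shortest and -0.85 in the longest group. Across 13363 genes with a length, which are not independent replicates, Pearson's correlation of the log2 difference with log10 length was -0.00612 in replicate 1 and -0.415 in replicate 2.

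**Figure D2:**
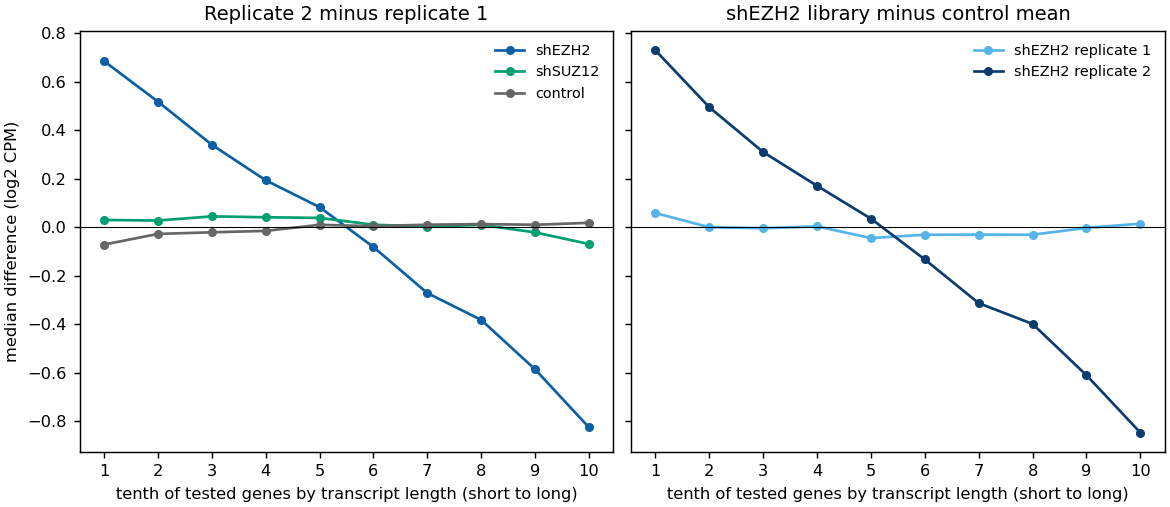
Median log2 differences in 10 equal groups of the tested genes, ordered from short to long transcripts. Left, replicate 2 minus replicate 1 within each group: shEZH2 runs from 0.68 to -0.83, shSUZ12 and control stay near 0. Right, each shEZH2 library minus the control mean: replicate 1 is flat and replicate 2 runs from 0.73 to -0.85.

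The trend entered the calls. The shortest group had 5.68% rises and 0.374% falls, and the longest had 1.8% rises and 4.11% falls. Called genes that were past 2-fold only in replicate 2 had a median length of 1911 bases when higher and 4803 bases when lower, against 3367 bases over all tested genes. The 590 genes past 2-fold in each library were closer to the whole, with median lengths of 2881 bases when higher and 4052 bases when lower. With each library's trend with length removed, 2305 genes were called, 1264 higher and 1041 lower, and 920 of the 957 were among them.

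Genes called in opposite directions by the libraries were the clearest case. Of these 301 genes, 70 were lower in replicate 1 and higher in replicate 2, with a median length of 1430 bases, and the others had the reverse pattern and a median length of 7232 bases. PRKDC, the catalytic subunit of the DNA-dependent protein kinase (13509 bases), had 858 and 265 CPM in shEZH2 cells, against 629 and 585 CPM in control cells. CENPF, a kinetochore protein (10307 bases), had 765 and 344 CPM in shEZH2 cells, against 628 and 617 CPM in control cells. ITGA2, the alpha-2 collagen receptor integrin (7869 bases), had 432 and 148 CPM in shEZH2 cells, against 210 and 270 CPM in control cells. In all of these the control libraries lay between the shEZH2 libraries. S100A6, a small calcium-binding protein (673 bases), had 1670 and 4510 CPM in shEZH2 cells, against 3260 and 3190 CPM in control cells. TMSB10, an actin-binding thymosin (496 bases), had 712 and 1790 CPM in shEZH2 cells, against 1000 and 929 CPM in control cells, and LGALS1, which encodes galectin 1 (560 bases), had 563 and 1210 CPM in shEZH2 cells, against 806 and 757 CPM in control cells. Here too the controls lay between the libraries, with replicate 1 below and replicate 2 above. In the fit with both libraries none of these 6 genes was called, and they are read as neither higher nor lower. EGFR, the epidermal growth factor receptor (9821 bases), was picked after its values were seen as a case in which only 1 library departed from control. It had 289 and 51.2 CPM in shEZH2 cells, against 321 and 272 CPM in control cells, with log2 differences of -0.03 in replicate 1 and -2.53 in replicate 2.

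The largest rises included genes with no read in control cells, beside others that control cells expressed at a low level. FOXR2 (chromosome X, 55623400 to 55625325, plus strand), a forkhead factor normally restricted to few tissues and recurrently activated in tumours, had 17.5 and 10.5 CPM in shEZH2 cells, against 0 and 0 CPM in control cells, at least 203-fold higher against a floor of 3 counts over the control group. AMPH (chromosome 7, 38383704 to 38631567, minus strand), the endocytic protein amphiphysin of nerve terminals, had 9.84 and 9.81 CPM in shEZH2 cells, against 0 and 0 CPM in control cells, at least 142-fold higher. LDB2 (chromosome 4, 16501541 to 16898809, minus strand), a scaffold for LIM-domain transcription factors, had 9.64 and 5.93 CPM in shEZH2 cells, against 0 and 0 CPM in control cells, at least 113-fold higher. None of the control libraries held a single read of these 3 genes. SLC9A2, a sodium-proton exchanger, had 6.70 and 3.48 CPM in shEZH2 cells, against 0.0450 and 0.0475 CPM in control cells, a ratio of 111 on 2 control counts with a counting interval of 30.4 to 923. KLHL13, an adaptor of the CUL3 ubiquitin ligase, had 8.78 and 4.04 CPM in shEZH2 cells, against 0.0901 and 0.190 CPM in control cells. PLCH2, a phospholipase C, had 15.2 and 21.5 CPM in shEZH2 cells, against 0.676 and 0.903 CPM in control cells. FKBP10, a prolyl isomerase and collagen chaperone of the endoplasmic reticulum, had 35.5 and 25.4 CPM in shEZH2 cells, against 2.07 and 0.808 CPM in control cells. KYNU, the kynureninase of tryptophan breakdown, had 10.8 and 8.48 CPM in shEZH2 cells, against 0.630 and 0.475 CPM in control cells. In each of these 5 the lowest shEZH2 library lay above the highest control library, which the rule that picked them required. RASEF, MDFI and FRMPD3 rose by 4.03 ± 0.55, 3.85 ± 0.45 and 3.39 ± 0.45 on the log2 scale. Over these 11 genes the edgeR quasi-likelihood p, adjusted by Benjamini-Hochberg, ran from 0.00144 to 0.0113.

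The largest falls included genes left under 1 CPM in shEZH2 cells, such as LSR, LHFPL4 and AGMAT, and others that stayed well expressed there, such as GPR116 and TNS4. LSR (chromosome 19, 35248330 to 35267964, plus strand), the lipolysis-stimulated lipoprotein receptor of tricellular junctions, had 0.241 and 0.409 CPM in shEZH2 cells, against 26.5 and 28.9 CPM in control cells, and fell by 6.40 ± 0.34 on the log2 scale. NUP210 (chromosome 3, 13316235 to 13420309, minus strand), a membrane protein of the nuclear pore, had 0.579 and 1.99 CPM in shEZH2 cells, against 89.1 and 91.7 CPM in control cells, and fell by 6.14 ± 0.47, more deeply in replicate 1 than in replicate 2 (log2 differences of -7.23 in replicate 1 and -5.49 in replicate 2). Its near neighbour HDAC11, a class IV histone deacetylase (chromosome 3, 13479724 to 13506424, plus strand), had 0.338 and 0.920 CPM in shEZH2 cells, against 5.72 and 5.32 CPM in control cells, and fell by 3.13 ± 0.44. LHFPL4, an organiser of inhibitory synapses, had 0 and 0.204 CPM in shEZH2 cells, against 7.61 and 6.03 CPM in control cells. AGMAT, named for the hydrolysis of agmatine, had 0.386 and 0.102 CPM in shEZH2 cells, against 8.02 and 5.94 CPM in control cells. The adhesion G protein-coupled receptor genes GPR110 and GPR116 lie close together on chromosome 6. GPR110 had 0.482 and 1.48 CPM in shEZH2 cells, against 19.8 and 25.1 CPM in control cells, and GPR116 had 28.4 and 15.6 CPM in shEZH2 cells, against 160 and 176 CPM in control cells. TNS4, a tensin at focal adhesions, had 26.7 and 28.5 CPM in shEZH2 cells, against 149 and 261 CPM in control cells, and ATP8B1, a phospholipid flippase, had 4.29 and 1.89 CPM in shEZH2 cells, against 21.9 and 14.4 CPM in control cells. ALPP, placental alkaline phosphatase, had 0.868 and 2.25 CPM in shEZH2 cells, against 13.1 and 16.1 CPM in control cells, with less certain counts because of its near-identical relatives. No control library overlapped a shEZH2 library in these genes, which the rule that picked them required. Over the 10 genes of this paragraph the edgeR quasi-likelihood p, adjusted by Benjamini-Hochberg, ran from 0.000599 to 0.0171.

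**Figure D3:**
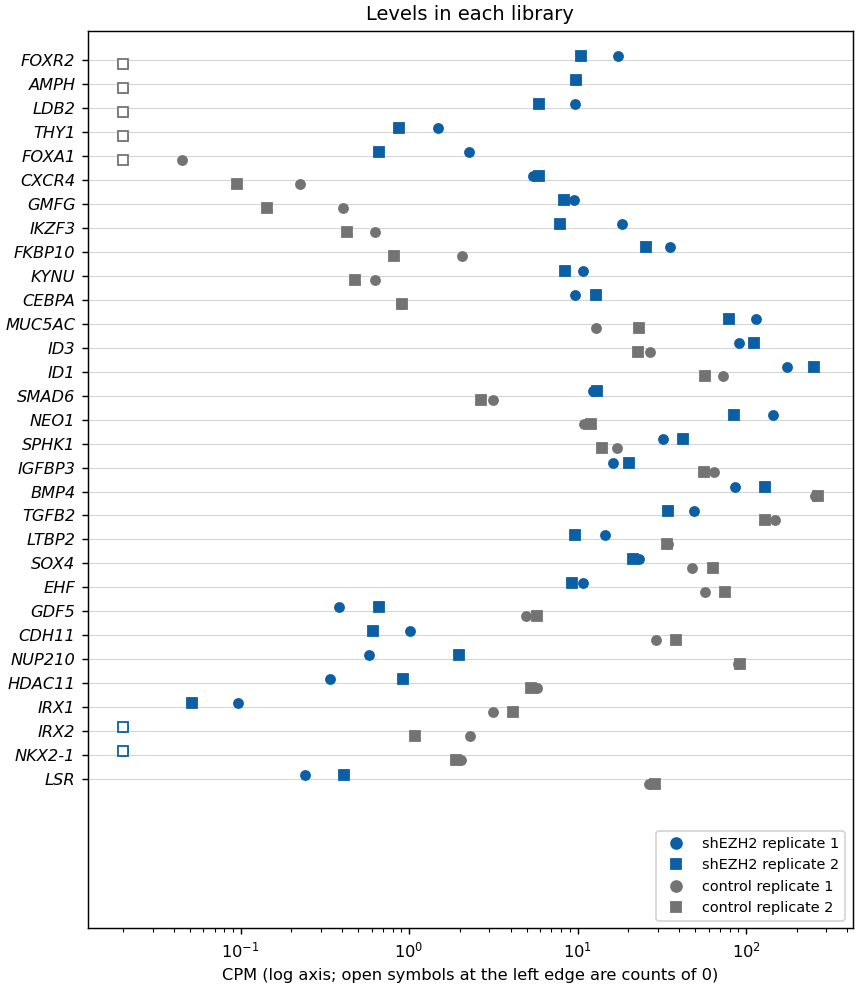
CPM in each library (log axis) for 31 genes, with rises at the top (FOXR2 to SPHK1) and falls below them (IGFBP3 to LSR), shEZH2 in blue above control in grey, circles for replicate 1 and squares for replicate 2. The genes shown were picked among called genes, and in each the shEZH2 libraries lie on 1 side of both control libraries. Open symbols at the left edge are counts of 0, overlapping where both libraries are at 0. They include FOXR2, AMPH, LDB2 and THY1 in control cells, FOXA1 in control replicate 2, and IRX2 and NKX2-1 in shEZH2 cells.

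Because PRC2 acts in mammals mainly at promoters rich in CG pairs, the 250 bases before the start of these genes were read from RefSeq (GRCh38.p14), and 5 are shown to set silent-to-active and active-to-silent genes side by side. They are FOXR2 at chrX:55623150-55623399 (plus strand), AMPH at chr7:38631374-38631623 (minus strand), LSR at chr19:35248752-35249001 (plus strand), NUP210 at chr3:13420323-13420572 (minus strand) and IRX2, a homeobox gene described with the developmental factors, at chr5:2751678-2751927 (minus strand). Capitals mark CG pairs, and each sequence runs 5′ to 3′ along the strand of its gene up to the last base before the RefSeq start. That start can differ from the gene bounds given above, which are those of GENCODE: the LSR window lies inside the GENCODE bounds of the gene, and that of AMPH lies mostly inside them.
FOXR2: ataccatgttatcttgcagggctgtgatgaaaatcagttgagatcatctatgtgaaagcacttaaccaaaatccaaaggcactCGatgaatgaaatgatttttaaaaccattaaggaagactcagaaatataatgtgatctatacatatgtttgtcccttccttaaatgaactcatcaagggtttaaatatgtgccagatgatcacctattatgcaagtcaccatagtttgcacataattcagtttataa
AMPH: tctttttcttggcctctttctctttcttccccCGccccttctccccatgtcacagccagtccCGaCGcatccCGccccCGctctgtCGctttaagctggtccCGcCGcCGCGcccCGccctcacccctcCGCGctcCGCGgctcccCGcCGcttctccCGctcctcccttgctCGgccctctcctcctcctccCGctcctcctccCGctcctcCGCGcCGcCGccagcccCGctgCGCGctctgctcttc
LSR: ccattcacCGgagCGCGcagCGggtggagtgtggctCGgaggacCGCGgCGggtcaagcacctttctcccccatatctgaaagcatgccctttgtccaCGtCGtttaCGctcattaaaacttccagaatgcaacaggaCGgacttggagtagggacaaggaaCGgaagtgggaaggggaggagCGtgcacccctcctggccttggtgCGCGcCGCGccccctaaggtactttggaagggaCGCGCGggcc
NUP210: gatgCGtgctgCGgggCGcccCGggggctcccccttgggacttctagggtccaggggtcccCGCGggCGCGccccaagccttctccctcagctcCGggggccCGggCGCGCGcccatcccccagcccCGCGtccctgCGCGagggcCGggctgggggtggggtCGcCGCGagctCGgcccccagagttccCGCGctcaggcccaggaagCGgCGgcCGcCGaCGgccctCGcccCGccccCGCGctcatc
IRX2: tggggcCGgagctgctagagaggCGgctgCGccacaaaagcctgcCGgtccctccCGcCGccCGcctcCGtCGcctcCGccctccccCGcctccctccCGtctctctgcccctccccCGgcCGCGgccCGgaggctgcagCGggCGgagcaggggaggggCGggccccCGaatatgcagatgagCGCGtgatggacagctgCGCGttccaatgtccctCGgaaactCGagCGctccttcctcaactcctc
FOXR2 and AMPH, both silent in control cells, differed in this respect: the FOXR2 window held 1 CG pair and 33.6% GC, and that of AMPH held 28 CG pairs and 71.6% GC. Among the genes that fell, the windows of LSR, NUP210 and IRX2 held 21, 33 and 27 CG pairs.

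The same windows were read for every tested gene with an entry in the table, using the first start listed for a gene. A window was counted as rich in CG when at least 50% of its bases were G or C and CG pairs reached 0.6 of the number expected from base composition. Such windows preceded 76.2% of 10832 tested genes, 72.1% of 384 genes called higher and 70.1% of 341 called lower. They preceded 62.3% of 223 genes higher and 64.9% of 208 lower among those past 2-fold in each shEZH2 library. Over 4-fold the shares were 53% of 100 genes higher and 52.4% of 82 lower. Of the 34 called genes that had at most 3 counts over the control group and rose, 23 had an entry, and 8 of these had such a window (34.8%). The shares are a description with no test, and are alike for rises and falls of the same size. They were not matched for expression level, and the part of that level in them was not tested.

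Of 106 developmental transcription factors listed, 61 were expressed highly enough to test, and 17 were called (27.9%, against 6.74% of all tested genes), 8 higher and 9 lower. Their median log2 fold change was -0.15, against -0.01 over all genes, with -0.14 in each shEZH2 library. This list and those below were chosen with earlier results of these data known, so their shares of calls may partly reflect that choice. NKX2-1, the lung and thyroid homeobox factor (chromosome 14, 36516392 to 36521149, minus strand), had 0 and 0 CPM in shEZH2 cells, against 2.03 and 1.90 CPM in control cells, at least 26.4-fold lower against a floor of 3 counts over the shEZH2 group. IRX2 (chromosome 5, 2745845 to 2751662, minus strand), an Iroquois homeobox factor, had 0 and 0 CPM in shEZH2 cells, against 2.30 and 1.09 CPM in control cells, at least 23-fold lower. IRX1, its neighbour in the same cluster (chromosome 5, 3596054 to 3601403, plus strand), had 0.0964 and 0.0511 CPM in shEZH2 cells, against 3.15 and 4.13 CPM in control cells. Its 3 remaining shEZH2 counts gave a ratio of 48.8 with a counting interval of 16.4 to 239. EHF, an ETS factor of epithelia, had 10.8 and 9.25 CPM in shEZH2 cells, against 57.0 and 74.8 CPM in control cells, and fell by 2.71 ± 0.23. SOX2, a pluripotency factor, had 0.193 and 0.153 CPM in shEZH2 cells, against 1.04 and 0.998 CPM in control cells, and SOX4, a factor active in breast cancer and transforming growth factor beta (TGF-beta) signalling, had 23.1 and 21.3 CPM in shEZH2 cells, against 47.8 and 63.7 CPM in control cells. SOX9 and NR2F2 fell by 0.93 ± 0.20 and 0.88 ± 0.17. In each of these 8 genes, picked because they were called, both shEZH2 libraries lay below both controls.

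Factors of other lineages were among the rises. FOXA1, the pioneer factor of luminal breast cells (chromosome 14, 37589984 to 37596059, minus strand), had 2.27 and 0.664 CPM in shEZH2 cells, against 0.0450 and 0 CPM in control cells, a ratio of 64.4 on 1 control count with a counting interval of 11.1 to 2580. CEBPA, a factor of myeloid and fat cells (chromosome 19, 33299934 to 33302564, minus strand), had 9.60 and 12.8 CPM in shEZH2 cells, against 0.901 and 0.903 CPM in control cells, and rose by 3.63 ± 0.33. SIX2, a kidney progenitor factor, had 14.8 and 11.1 CPM in shEZH2 cells, against 5.81 and 5.23 CPM in control cells. With ID1, ID2 and ID3, described below, and FOXR2 and LDB2, these were the 8 rises of the list. For the 16 of these genes named here the edgeR quasi-likelihood p, adjusted by Benjamini-Hochberg, ran from 0.00298 to 0.0381. HOX genes, classical Polycomb targets, were mostly below the level for testing: of 39 listed, 18 had no count in any library and 11 were tested, none of them in the HOXA cluster. HOXC5 had 2.80 and 2.86 CPM in shEZH2 cells, against 0.901 and 0.665 CPM in control cells, and rose by 1.84 ± 0.36 (edgeR adjusted p = 0.0286). HOXB3 had 1.06 and 0.971 CPM in shEZH2 cells, against 2.61 and 3.85 CPM in control cells, and fell by 1.66 ± 0.34 (edgeR adjusted p = 0.0339).

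TGF-beta and bone morphogenetic protein (BMP) signalling had the largest share of calls among the lists with over 50 tested members. It held 18 calls among 56 genes (32.1%, against 6.74% of all tested genes), 9 higher and 9 lower. With lists chosen after earlier results of these data, the order of their shares may partly reflect that choice and was not tested. The median log2 fold change was -0.06, with 0.09 in replicate 1 and -0.42 in replicate 2. Of 13 ligands 4 fell and 2 rose. INHBB, a subunit of activin B (chromosome 2, 120346143 to 120351808, plus strand), had 5.11 and 5.57 CPM in shEZH2 cells, against 70.6 and 65.0 CPM in control cells, and fell by 3.67 ± 0.30. GDF5, a joint-forming BMP relative, had 0.386 and 0.664 CPM in shEZH2 cells, against 4.91 and 5.75 CPM in control cells. TGFB2, a TGF-beta ligand, had 48.9 and 34.3 CPM in shEZH2 cells, against 149 and 129 CPM in control cells, and BMP4 had 86.5 and 129 CPM in shEZH2 cells, against 256 and 267 CPM in control cells. BMP2 went the other way, with 5.16 and 3.17 CPM in shEZH2 cells, against 1.08 and 0.998 CPM in control cells, as did GDF15, a stress-induced member of the family, with 19.1 and 27.7 CPM in shEZH2 cells, against 7.66 and 6.70 CPM in control cells. Each of these 6 ligands, picked because they were called, had both shEZH2 libraries on 1 side of both controls.

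Of 21 SMADs, inhibitors and latency factors 4 fell and 2 rose, and of 8 target genes 4 rose and 1 fell. FST, which encodes the activin antagonist follistatin, had 26.0 and 30.0 CPM in shEZH2 cells, against 91.4 and 59.2 CPM in control cells. ITGB8, an integrin that frees latent TGF-beta, had 0.241 and 0.102 CPM in shEZH2 cells, against 1.85 and 3.52 CPM in control cells, and LTBP2, a relative of the latent TGF-beta binding proteins, had 14.5 and 9.71 CPM in shEZH2 cells, against 34.4 and 33.9 CPM in control cells, while LTBP3, which binds latent TGF-beta, had 28.2 and 39.7 CPM in shEZH2 cells, against 12.1 and 15 CPM in control cells. SMURF2, a ubiquitin ligase of the pathway, fell by 1.29 ± 0.22, and PMEPA1, a TGF-beta-induced inhibitor of it, fell by 0.97 ± 0.17. SMAD6, the inhibitory SMAD of BMP signalling (chromosome 15, 66702228 to 66782848, plus strand), had 12.3 and 13.1 CPM in shEZH2 cells, against 3.15 and 2.66 CPM in control cells, and rose by 2.12 ± 0.25. Of the ID genes, textbook targets of BMP signalling that block differentiation factors, ID1, ID2 and ID3 rose. ID1 (chromosome 20, 31605283 to 31606515, plus strand) had 175 and 252 CPM in shEZH2 cells, against 73.4 and 56.9 CPM in control cells. ID2 had 4.29 and 3.63 CPM in shEZH2 cells, against 0.585 and 0.760 CPM in control cells, and ID3 (chromosome 1, 23557918 to 23559794, minus strand) had 91.4 and 112 CPM in shEZH2 cells, against 27 and 22.7 CPM in control cells. ID4, not called, had 7.43 and 6.03 CPM in shEZH2 cells, against 3.51 and 2.47 CPM in control cells, with a log2 fold change of 1.17 ± 0.30 (edgeR adjusted p = 0.0589). ACVRL1, a receptor for BMP9, had 0.675 and 0.818 CPM in shEZH2 cells, against 0 and 0.0475 CPM in control cells, a ratio of 32.2 on 1 control count with a counting interval of 5.35 to 1310. SPHK1, a sphingosine kinase, rose by 1.26 ± 0.24. For the 18 genes the edgeR quasi-likelihood p, adjusted by Benjamini-Hochberg, ran from 0.00298 to 0.0266. SMAD6 lies on the stretch of chromosome 15 described last, and the part of that stretch in its rise was not tested.

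Of 68 tested growth factors and receptor tyrosine kinases 10 fell, 4 rose and 54 did not pass the test (20.6% called, against 6.74% of all tested genes). Below control were 42 and above it 26, with a median of -0.20, and -0.28 and -0.27 in the shEZH2 libraries. VEGFA, the main angiogenic factor (chromosome 6, 43770184 to 43786487, plus strand), had 62.9 and 64.8 CPM in shEZH2 cells, against 205 and 211 CPM in control cells, and fell by 1.70 ± 0.16. PGF, its placental relative, had 29.9 and 38.1 CPM in shEZH2 cells, against 10.4 and 9.41 CPM in control cells, and rose by 1.78 ± 0.22. Of 29 receptors 6 fell and 1 rose. MUSK, the kinase of the neuromuscular junction, had 0.434 and 0.153 CPM in shEZH2 cells, against 5.58 and 6.03 CPM in control cells. AXL, a receptor of mesenchymal breast cancer cells (chromosome 19, 41219203 to 41261766, plus strand), had 855 and 630 CPM in shEZH2 cells, against 1750 and 1440 CPM in control cells, and fell by 1.10 ± 0.21. KDR, a VEGF receptor, and the VEGF co-receptors NRP1 and NRP2 fell by 2.07 ± 0.45, 1.0 ± 0.23 and 1.38 ± 0.21. EPHA4 fell by 1.61 ± 0.28, and EPHA7, another ephrin receptor, had 1.93 and 0.920 CPM in shEZH2 cells, against 0.135 and 0.0475 CPM in control cells. Around the insulin-like growth factors, IGFBP3 had 16.2 and 20.1 CPM in shEZH2 cells, against 64.8 and 56.5 CPM in control cells, IGFBP2 had 1.88 and 2.66 CPM in shEZH2 cells, against 0.180 and 0.238 CPM in control cells, and PAPPA, a protease of IGF-binding proteins, had 6.80 and 5.06 CPM in shEZH2 cells, against 21.8 and 24.9 CPM in control cells. IGFBP3 and PAPPA fell and IGFBP2 rose. NRG2, a ligand of ERBB receptors, rose by 2.88 ± 0.56, and BDNF, a neurotrophin, fell by 0.98 ± 0.22. For the 14 genes the edgeR quasi-likelihood p, adjusted by Benjamini-Hochberg, ran from 0.0044 to 0.0475.

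Of 45 tested genes of epithelial junctions and keratins 9 fell and 0 rose (20% called, against 6.74% of all tested genes called and 3.2% called lower), with a median log2 fold change of -0.60, -0.69 in replicate 1 and -0.55 in replicate 2, and 33 of the 45 lay below control, against 7257 of 14192 over all tested genes. Beside LSR these were PROM2, CLDN1, CLDN2, ESRP2, EPCAM, MAL2, PKP2 and KRT80. CLDN1, a claudin of tight junctions, had 0.530 and 0.664 CPM in shEZH2 cells, against 4.05 and 2.76 CPM in control cells. ESRP2, a splicing regulator of epithelial cells, had 1.01 and 0.409 CPM in shEZH2 cells, against 6.80 and 5.75 CPM in control cells, and PROM2, a protein of membrane protrusions, had 0.0964 and 0.256 CPM in shEZH2 cells, against 2.34 and 3.66 CPM in control cells. EPCAM, an epithelial adhesion molecule, had 5.21 and 7.15 CPM in shEZH2 cells, against 16.4 and 14.2 CPM in control cells. PKP2, a desmosomal plakophilin, had 53.3 and 32.7 CPM in shEZH2 cells, against 103 and 92.8 CPM in control cells, and KRT80, a keratin, had 189 and 177 CPM in shEZH2 cells, against 323 and 320 CPM in control cells. None of these genes, picked because they were called, overlapped between the groups. For the 9 genes the edgeR quasi-likelihood p, adjusted by Benjamini-Hochberg, ran from 0.000599 to 0.0421. CLDN1 lies on the stretch of chromosome 3 described last.

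Of 44 cadherins, integrins and related molecules 8 fell and 2 rose (22.7% called, against 6.74% of all tested genes). Below control were 28 and above it 16, with a median of -0.37, and -0.24 and -0.63 in the shEZH2 libraries. CDH11, a cadherin of mesenchymal cells (chromosome 16, 64943753 to 65126112, minus strand), had 1.01 and 0.613 CPM in shEZH2 cells, against 29.3 and 38.6 CPM in control cells, and fell by 5.37 ± 0.33. L1CAM, a neural adhesion molecule found in invasive tumours (chromosome X, 153861514 to 153886174, minus strand), had 5.50 and 12.2 CPM in shEZH2 cells, against 135 and 116 CPM in control cells, and fell by 3.83 ± 0.37. ITGB2, the beta chain of leukocyte integrins, had 8.29 and 8.69 CPM in shEZH2 cells, against 43.0 and 35.1 CPM in control cells. MCAM, an adhesion molecule of melanoma and vessels, had 31.7 and 19.0 CPM in shEZH2 cells, against 123 and 91.8 CPM in control cells. ALCAM, ITGA3 and ITGB5 fell by 1.17 ± 0.25, 0.95 ± 0.18 and 0.68 ± 0.16. ICAM1, the ligand of leukocyte integrins, had 50.2 and 47.0 CPM in shEZH2 cells, against 13.0 and 13.9 CPM in control cells, and rose by 1.85 ± 0.22, and CADM1, a cell adhesion molecule of the immunoglobulin type, had 4.15 and 3.27 CPM in shEZH2 cells, against 0.856 and 0.713 CPM in control cells. Each of these genes, picked because they were called, had both shEZH2 libraries on the same side of both controls. For the 10 genes, ITGB8 included, the edgeR quasi-likelihood p, adjusted by Benjamini-Hochberg, ran from 0.00143 to 0.0485.

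Of 8 tested regulators of epithelial-mesenchymal transition 2, SNAI1 and PRRX1, rose and 6 did not pass the test, where 6.74% of all tested genes were called. The list had no common direction: 4 lay above control and 4 below it. Its median log2 fold change was 0.16, with 0.31 in replicate 1 and 0.18 in replicate 2. The values ran from -0.72 to 3.21, and the highest belonged to a gene that was not called. SNAI1, a repressor of epithelial genes (chromosome 20, 49982999 to 49988886, plus strand), had 6.51 and 6.13 CPM in shEZH2 cells, against 1.17 and 1.09 CPM in control cells, and rose by 2.48 ± 0.32 (edgeR adjusted p = 0.00966). PRRX1, a mesenchymal homeobox factor, had 4.87 and 3.22 CPM in shEZH2 cells, against 1.53 and 0.95 CPM in control cells, and rose by 1.70 ± 0.37 (edgeR adjusted p = 0.0392). Vimentin, the intermediate filament of mesenchymal cells, was high in both groups, with 3430 and 5150 CPM in shEZH2 cells, against 3170 and 2940 CPM in control cells, and did not pass the edgeR test (adjusted p = 0.214).

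Matrix genes moved in both directions. Of 56 extracellular matrix genes 6 rose and 5 fell (19.6% called, against 6.74% of all tested genes), with a median of -0.02. The collagen VI genes COL6A1 and COL6A2, which are neighbours on chromosome 21, rose by 0.86 ± 0.17 and 1.58 ± 0.18, and COL6A2 had 84.5 and 78.8 CPM in shEZH2 cells, against 28.6 and 25.8 CPM in control cells. COL18A1, the source of endostatin, had 243 and 290 CPM in shEZH2 cells, against 128 and 159 CPM in control cells. MEGF6, a secreted protein with EGF-like repeats, had 23.7 and 18.1 CPM in shEZH2 cells, against 2.93 and 2.38 CPM in control cells. SPOCK1, a proteoglycan, and LUM, lumican, rose by 1.54 ± 0.36 and 2.27 ± 0.53. THBS1, thrombospondin 1, had 430 and 188 CPM in shEZH2 cells, against 1200 and 812 CPM in control cells, so that the shEZH2 libraries differed over 2-fold between themselves and lay below both controls. MATN2, a matrilin, had 4.73 and 4.85 CPM in shEZH2 cells, against 25.1 and 21.4 CPM in control cells, and COL8A1 had 35.8 and 22.5 CPM in shEZH2 cells, against 96.4 and 78.1 CPM in control cells. COL4A4, a basement membrane collagen, fell by 1.73 ± 0.41, and COL1A2 fell with 3 counts left in shEZH2 cells, a ratio of 11.5 with a counting interval of 3.64 to 58.3. Among 42 extracellular proteases and their inhibitors 2 rose and 5 fell (16.7% called). SERPINB2, an inhibitor of plasminogen activators (chromosome 18, 63871692 to 63903890, plus strand), had 4.77 and 5.42 CPM in shEZH2 cells, against 0.135 and 0.0950 CPM in control cells, and rose by 5.39 ± 0.40. SERPINA1, alpha-1 antitrypsin, had 13.3 and 21.1 CPM in shEZH2 cells, against 2.30 and 2.28 CPM in control cells. PLAT, the tissue plasminogen activator, had 26.3 and 44.5 CPM in shEZH2 cells, against 99.4 and 126 CPM in control cells, SERPINB9, an inhibitor of granzyme B, had 19.0 and 10.2 CPM in shEZH2 cells, against 41.7 and 38.0 CPM in control cells, and ADAM9, a membrane metalloprotease, had 199 and 105 CPM in shEZH2 cells, against 394 and 391 CPM in control cells. ADAMTS6 and MMP24 fell by 1.94 ± 0.40 and 1.81 ± 0.37. Over these 18 genes the edgeR quasi-likelihood p, adjusted by Benjamini-Hochberg, ran from 0.00204 to 0.0476.

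Some genes usually found in blood cells rose in this carcinoma line. Of 58 listed 31 were tested, and 7 rose, 1, ITGB2, fell and 23 did not pass (25.8% called, against 6.74% of all tested genes). Above control were 19 and below it 12, with a median of 0.20, and 0.24 and 0.45 in the shEZH2 libraries. HCLS1, a cytoskeletal adaptor of blood cells (chromosome 3, 121631399 to 121660927, minus strand), had 57.8 and 59.6 CPM in shEZH2 cells, against 3.33 and 2.85 CPM in control cells, and rose by 4.24 ± 0.22. CXCR4, the receptor of CXCL12 (chromosome 2, 136114349 to 136118165, minus strand), had 5.45 and 5.88 CPM in shEZH2 cells, against 0.225 and 0.0950 CPM in control cells. GMFG, an actin regulator (chromosome 19, 39328353 to 39342372, minus strand), had 9.55 and 8.33 CPM in shEZH2 cells, against 0.405 and 0.143 CPM in control cells. IKZF3, the lymphoid zinc finger factor Aiolos (chromosome 17, 39757715 to 39864188, minus strand), had 18.3 and 7.92 CPM in shEZH2 cells, against 0.630 and 0.428 CPM in control cells, and PIK3CG, the leukocyte PI3-kinase gamma (chromosome 7, 106865278 to 106907145, plus strand), had 12 and 4.85 CPM in shEZH2 cells, against 0.676 and 0.285 CPM in control cells, both higher in replicate 1 than in replicate 2. PIK3AP1, a B-cell PI3-kinase adaptor, had 9.79 and 5.52 CPM in shEZH2 cells, against 2.30 and 1.47 CPM in control cells, and LAPTM5, a lysosomal protein of blood cells already expressed in control cells, had 335 and 374 CPM in shEZH2 cells, against 133 and 121 CPM in control cells. For the 7 rises the edgeR quasi-likelihood p, adjusted by Benjamini-Hochberg, ran from 0.000599 to 0.028. Markers that define leukocytes were at or near 0: of 12 markers 11 were present in the counts, 5 were at 0 in all 4 libraries (CD3E, CD3D and MS4A1 among them), 9 were under 1 CPM in every library, and PTPRC, which encodes CD45, had 0 and 0.0511 CPM in shEZH2 cells against 0.225 and 0.333 CPM in control cells. The summed level of the list was 108 and 118 CPM in shEZH2 cells, against 95 and 89.9 CPM in control cells, most of it CD68. Of the leukocyte markers 3 were tested and 1 was called (33.3%). It was CD14, of monocytes, which had 2.03 and 4.50 CPM in shEZH2 cells, against 0.766 and 0.665 CPM in control cells, and rose by 2.17 ± 0.47 (edgeR adjusted p = 0.0372).

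The secretory list was short but had many calls. Of 14 tested genes of mucins and secretory epithelium 4 rose and 2 fell (42.9%, against 6.74% of all tested genes). MUC5AC (chromosome 11, 1157953 to 1201138, plus strand), the gel-forming mucin of stomach and airways, had 114 and 79.8 CPM in shEZH2 cells, against 12.9 and 23.1 CPM in control cells, and rose by 2.43 ± 0.32. MUC5B, a gel-forming mucin encoded nearby, had 9.06 and 6.80 CPM in shEZH2 cells, against 0.676 and 1.05 CPM in control cells. CREB3L3, a liver and gut factor activated at the endoplasmic reticulum, had 5.11 and 5.67 CPM in shEZH2 cells, against 0.315 and 0.333 CPM in control cells. CREB3L1, a related factor, had 26.9 and 37.8 CPM in shEZH2 cells, against 63.0 and 77.2 CPM in control cells, and MUC4, a membrane mucin, had 0 and 0.0511 CPM in shEZH2 cells, against 0.856 and 2.04 CPM in control cells, a fall on 1 shEZH2 count with a ratio of 57.8 and a counting interval of 9.99 to 2320. With CEBPA, which the list shares, the edgeR quasi-likelihood p, adjusted by Benjamini-Hochberg, ran from 0.00373 to 0.0337 over these 6 genes. MUC4 lies on the stretch of chromosome 3 described last, and the part of that stretch in its fall was not tested. MUC5AC, MUC5B, CREB3L3 and CEBPA were also called in the direct contrast, higher in shEZH2 than in shSUZ12 cells, by 5.32 ± 0.38, 5.06 ± 0.54, 3.6 ± 0.35 and 6.28 ± 0.42 on the log2 scale. In shSUZ12 cells MUC5AC had 2.37 and 2.48 CPM and CEBPA had 0.179 and 0.0954 CPM, below both controls. That contrast called 216 of 14192 genes (1.52%), and 36 of the 147 called genes among the 152 that the naming rule selected, 20 of them higher and 16 lower in shEZH2 cells. Without control replicate 1 or 2 it called 1 gene, and without shSUZ12 replicate 1 or 2 it called 0, with 1285 and 1485 genes at an unadjusted p under 0.05.

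Immune genes moved by list. Of 48 interferon-stimulated genes 7 fell and 0 rose (14.6% called, against 6.74% of all tested genes). The median was -0.27, with -0.48 in replicate 1 and -0.29 in replicate 2. SAMD9L, an antiviral and growth-restraining protein, had 7.62 and 7.21 CPM in shEZH2 cells, against 28.0 and 37.0 CPM in control cells. DDX58, the RNA sensor RIG-I, had 26.2 and 22.4 CPM in shEZH2 cells, against 54.9 and 65.7 CPM in control cells. The neighbours IFIT1, IFIT2 and IFIT3, which bind viral RNA or partner in doing so, had 15.9 and 22.1 CPM, 20 and 23.4 CPM and 32.5 and 43.4 CPM in shEZH2 cells, against 44.4 and 36.9 CPM, 48.5 and 45 CPM and 91.6 and 81.2 CPM in control cells. OAS2 and HERC6 fell by 1.15 ± 0.26 and 0.82 ± 0.19. For these 7 genes the edgeR quasi-likelihood p, adjusted by Benjamini-Hochberg, ran from 0.00598 to 0.0449. Of 34 antigen presentation genes 3 fell and 2 rose (14.7% called), and 0 of the 17 class I genes were called. CIITA, the master regulator of class II genes, had 3.91 and 2.86 CPM in shEZH2 cells, against 9.59 and 13.2 CPM in control cells. CD274 and PDCD1LG2, the ligands of the checkpoint receptor PD-1, fell by 1.34 ± 0.22 and 1.59 ± 0.34, and CD274 had 16.6 and 12.3 CPM in shEZH2 cells, against 39.8 and 33.7 CPM in control cells. CD276, another B7 family protein, had 87.4 and 102 CPM in shEZH2 cells, against 32.9 and 40.9 CPM in control cells, and LGALS9, galectin 9, had 1.74 and 2.20 CPM in shEZH2 cells, against 0.135 and 0.190 CPM in control cells. Among 38 NF-kB genes 4 rose and 3 fell (18.4% called, median 0.35, with 0.37 and 0.30 in the shEZH2 libraries). Beside ICAM1 these were NFKBIA, the inhibitor of NF-kB, with 61.1 and 72.6 CPM in shEZH2 cells, against 35.8 and 32.4 CPM in control cells, TRAF1 and CSF2, which rose by 1.13 ± 0.21 and 1.43 ± 0.29, and BIRC2, CYLD and TNFSF10, which fell by 1.29 ± 0.18, 1.02 ± 0.21 and 2.17 ± 0.38. For these 11 genes of presentation and NF-kB named with values, the edgeR quasi-likelihood p, adjusted by Benjamini-Hochberg, ran from 0.0101 to 0.0357. Of 35 chemokines and cytokines CSF2 and SPP1 rose (5.71% called, near the 6.74% of all tested genes). SPP1, osteopontin, had 3.33 and 6.23 CPM in shEZH2 cells, against 0.0901 and 0 CPM in control cells. That is a ratio of 102 on 2 control counts with a counting interval of 28.0 to 852 (edgeR adjusted p = 0.00677).

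Lists of growth, repair and metabolism had few calls in some cases and shares above the background in others. Of 82 cell cycle genes 0 rose and 1 fell (1.22%, against 6.74% of all genes), with medians of -0.04 in each shEZH2 library. The 1 was TP53INP1, a p53 target, with 2.65 and 2.35 CPM in shEZH2 cells, against 6.85 and 9.08 CPM in control cells. Of 38 homologous recombination genes CHEK2, a checkpoint kinase, rose by 1.08 ± 0.22 and MRE11A, a nuclease of broken ends, fell by 0.99 ± 0.23 (5.26% called). Of 23 genes of strand break repair 1 was called (4.35%). It was SMUG1, a uracil glycosylase, which rose, with 52.4 and 62.5 CPM in shEZH2 cells, against 25.8 and 24.4 CPM in control cells. Among the 4 genes the edgeR quasi-likelihood p, adjusted by Benjamini-Hochberg, ran from 0.0176 to 0.0497. None of the 36 genes of amino acid and unfolded protein stress was called. Of 19 serine and one-carbon genes 1 rose and 2 fell (15.8% called), and 16 lay below control. PHGDH, the first enzyme of the serine pathway, rose by 1.92 ± 0.22, with 27 and 35.0 CPM in shEZH2 cells, against 8.51 and 7.89 CPM in control cells, while PSAT1, the next enzyme, had 137 and 112 CPM in shEZH2 cells, against 283 and 209 CPM in control cells, and fell by 0.98 ± 0.21 (edgeR adjusted p = 0.00677 and 0.0394). Of 43 genes of cholesterol and fatty acid synthesis 36 lay below control, with a median of -0.54 (-0.52 and -0.56 in the shEZH2 libraries), and 1 passed the test (2.33%), SREBF2, the factor that drives sterol synthesis, with 95 and 89.1 CPM in shEZH2 cells, against 146 and 201 CPM in control cells (edgeR adjusted p = 0.0442). MYC had 45.6 and 65.9 CPM in shEZH2 cells, against 122 and 118 CPM in control cells, and fell by 1.11 ± 0.22 (edgeR adjusted p = 0.0324), while the immediate early genes EGR1, JUNB and KLF2 rose by 1.72 ± 0.32, 1.15 ± 0.20 and 1.2 ± 0.22 (edgeR 0.0225 to 0.0257). Among 41 genes of hypoxia and glycolysis CA12, EGLN3 and ALDOC rose and VEGFA and LOX fell (12.2% called).

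Among the lists with over 50 tested members, the medians of the shEZH2 libraries lay furthest apart for respiratory chain and ribosomal protein genes. Among 79 genes of ribosomal proteins there were 7 rises and 0 falls (8.86% called, near the 6.74% of all tested genes), and 78 lay above control, against 6935 of 14192 over all tested genes, but the median was 0.34 in replicate 1 and 1.11 in replicate 2. Of 53 respiratory chain genes 4 rose (7.55%, also near that share), and the medians were 0.11 and 1.0. Both lists hold short transcripts, with median lengths of 1171 and 1240 bases against 3367 over all tested genes. With the trend with length removed the medians were 0.39 and 0.28, against 0.74 and 0.59 with it. RPLP1, a stalk protein of the large subunit, had 1140 and 2160 CPM in shEZH2 cells, against 545 and 564 CPM in control cells, and RPS21, of the small subunit, had 712 and 1290 CPM in shEZH2 cells, against 469 and 395 CPM in control cells. UQCRH, of respiratory complex III, had 284 and 422 CPM in shEZH2 cells, against 117 and 111 CPM in control cells, and rose by 1.63 ± 0.22, to which both libraries contributed (log2 differences of 1.32 in replicate 1 and 1.89 in replicate 2). SDHB, of complex II, had 152 and 202 CPM in shEZH2 cells, against 101 and 97.8 CPM in control cells. For these 4 genes the edgeR quasi-likelihood p, adjusted by Benjamini-Hochberg, ran from 0.0106 to 0.046. Ribosomal protein genes have many processed pseudogenes, which makes their counts less certain, and multimapping reads were most frequent in shEZH2 replicate 2, at 10.4% of its counts. The part of length and of multimapping in the values of these lists was not tested beyond removal of the length trend.

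**Figure D4:**
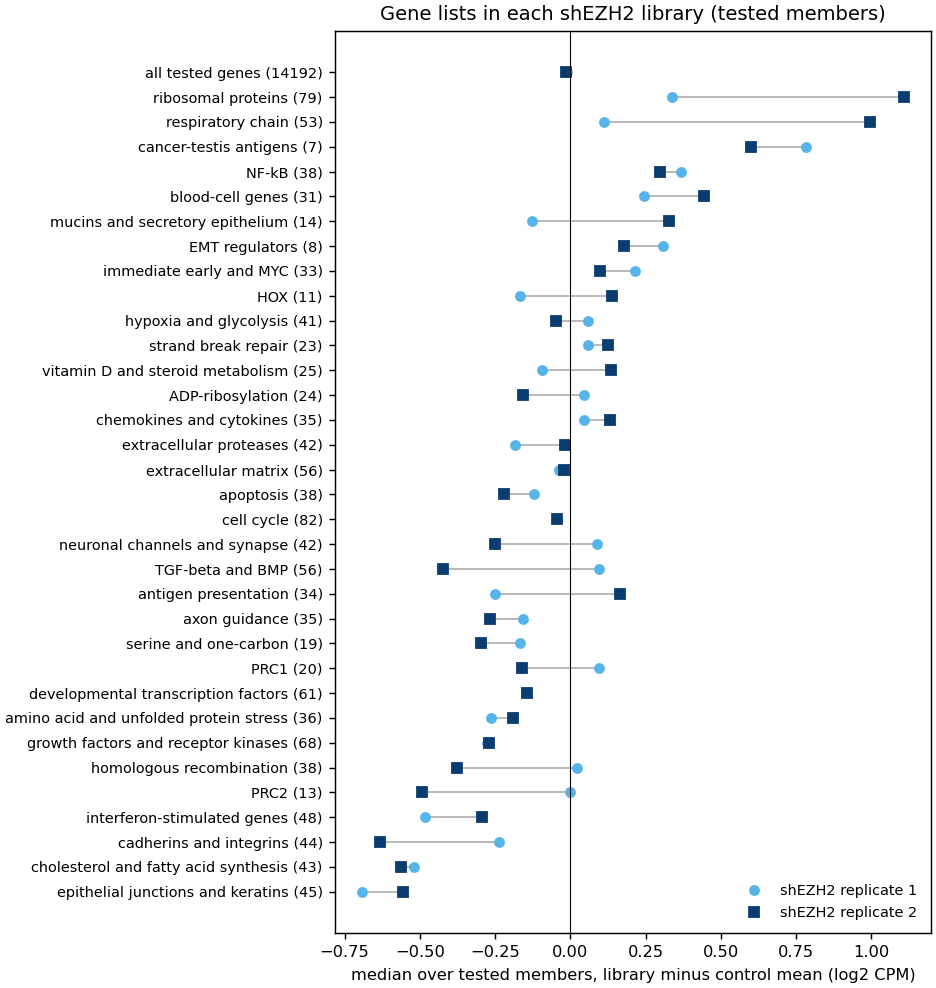
Median log2 difference from the control mean over the tested members of each gene list, with replicate 1 of shEZH2 as light circles and replicate 2 as dark squares, and the number of tested members in parentheses. All tested genes lie near 0; of the lists plotted, which leave out the cell type markers, ribosomal protein and respiratory chain genes are separated furthest (0.34 against 1.11 and 0.11 against 1.0), while epithelial junction, cholesterol and cell cycle genes lie close together.

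Neuronal and guidance genes held several of the deepest changes without a common direction. Of 42 tested genes of neuronal channels and synapses 4 rose and 6 fell (23.8% called, against 6.74% of all tested genes). Beside AMPH and LHFPL4 these included SCN9A, a sodium channel gene, with 0.771 and 0.460 CPM in shEZH2 cells, against 2.79 and 2.95 CPM in control cells. TENM1, a teneurin, had 0.723 and 0.358 CPM in shEZH2 cells, against 6.57 and 8.32 CPM in control cells, and SHANK2, a synaptic scaffold, had 9.06 and 5.42 CPM in shEZH2 cells, against 26.5 and 27.1 CPM in control cells. KCNAB2, a potassium channel subunit, had 24.4 and 27.7 CPM in shEZH2 cells, against 7.03 and 6.70 CPM in control cells, and GABRE, a GABA receptor subunit, had 14.0 and 19.7 CPM in shEZH2 cells, against 1.67 and 5.56 CPM in control cells. NEO1, neogenin, a receptor for netrins and repulsive guidance molecules (chromosome 15, 73051710 to 73305206, plus strand), had 145 and 85.3 CPM in shEZH2 cells, against 10.9 and 12.1 CPM in control cells, and rose by 3.33 ± 0.29. CYP24A1, which inactivates vitamin D (chromosome 20, 54153449 to 54173973, minus strand), had 0.386 and 0.102 CPM in shEZH2 cells, against 7.79 and 4.99 CPM in control cells, and fell by 4.66 ± 0.55. NR3C2, the mineralocorticoid receptor, had 4.24 and 4.34 CPM in shEZH2 cells, against 15.6 and 15.5 CPM in control cells. Over these 8 genes the edgeR quasi-likelihood p, adjusted by Benjamini-Hochberg, ran from 0.00361 to 0.0449. Of the cancer-testis antigens MAGEC2 rose, with 16.6 and 7.10 CPM in shEZH2 cells, against 3.06 and 1.38 CPM in control cells (edgeR adjusted p = 0.0403). Of 39 listed, 7 were expressed highly enough to test, and 14.3% of these were called, against 6.74% of all tested genes.

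Markers of the line and of other cell types were read alongside. None of 12 markers of mesenchymal MDA-MB-231 cells was at 0, and their summed levels were 8560 and 11100 CPM in shEZH2 cells and 10700 and 9730 CPM in control cells. Of the 12, 9 lay below control, with a median log2 fold change of -0.54 (-0.43 and -0.71 in the shEZH2 libraries). AXL and CAV2 fell (16.7% called, against 6.74% of all tested genes). Luminal markers summed to 1020 and 1860 CPM in shEZH2 cells and 1490 CPM in each control library, with ESR1 at 0 in all 4. FOXA1 rose and EPCAM fell among 9 tested (22.2% called). Fibroblast markers summed to 21.0 and 25.3 CPM in shEZH2 cells and 17.2 and 25.8 CPM in control cells, with COL3A1 at 0. Of 6 tested, THY1 and LUM rose and COL1A2 fell, with 3 above and 3 below control. THY1, also a marker of stem-like cells (chromosome 11, 119417378 to 119424985, minus strand), had 1.49 and 0.869 CPM in shEZH2 cells, against 0 and 0 CPM in control cells, at least 17.2-fold higher. Endothelial markers summed to 136 and 178 CPM in shEZH2 cells, below the 246 CPM of control replicate 1 and below control replicate 2 as well, with CDH5 at 0. PECAM1 had 6.22 and 7.87 CPM in shEZH2 cells, against 1.85 and 2.99 CPM in control cells, and rose, as did TIE1 on 2 control counts, while KDR fell. Of the 5 endothelial markers tested 60.0% were called. Basal markers summed to 617 and 230 CPM in shEZH2 cells and 639 and 570 CPM in control cells, with KRT5 and KRT6A at 0, and 0 of 3 tested were called. Neuronal markers summed to 91.8 and 125 CPM in shEZH2 cells and 93.2 and 98.5 CPM in control cells, most of it TUBB3, with NEFM and ELAVL4 at 0 and 0 of 5 tested called. For THY1, PECAM1, TIE1, KDR, FOXA1, EPCAM, AXL and CAV2 the edgeR quasi-likelihood p, adjusted by Benjamini-Hochberg, ran from 0.0265 to 0.0475.

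Some stretches of the genome held many calls. The 13363 tested genes with a position were taken in order along each chromosome in 523 windows of 25 genes, whose median log2 fold changes had 5th and 95th percentiles of -0.41 and 0.38. Of the 7 windows with a median above 0.5, 5 lay on chromosome 15. From RAB8B to SNRPA1 (chromosome 15, 63189469 to 101295282) 46 of 225 tested genes rose and 1 fell, which is 20.4% higher against 3.54% of all tested genes. The median was 0.60, with 0.61 in replicate 1 and 0.60 in replicate 2, and 0.66 with the length trend removed. Above control were 197 of the 225, 161 of them in each shEZH2 library. The 200 tested genes of chromosome 15 before RAB8B had 2 rises, 5 falls and a median of -0.17 (-0.06 and -0.35 in the libraries). The stretch held 9.15% of all rises. It includes NEO1, SMAD6, CD276, CA12 and RPLP1, named above, and RPL4, a further called ribosomal protein gene, so those calls stand on a raised background, and the part of that background in them was not tested.

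Called genes of the stretch came from many functions. HEXA, a lysosomal hexosaminidase, had 116 and 147 CPM in shEZH2 cells, against 71.9 and 71.2 CPM in control cells. SNX1, an endosomal sorting nexin, had 167 and 174 CPM in shEZH2 cells, against 85.6 and 84.8 CPM in control cells, and PSMA4, a proteasome subunit, had 245 and 389 CPM in shEZH2 cells, against 147 and 140 CPM in control cells. CLN6, a protein of the endoplasmic reticulum mutated in a storage disease, had 124 and 132 CPM in shEZH2 cells, against 61.1 and 45.7 CPM in control cells. UBL7, a ubiquitin-like protein, had 165 and 241 CPM in shEZH2 cells, against 34.8 and 46.0 CPM in control cells, and CTSH, a lysosomal cathepsin, had 26.6 and 42.0 CPM in shEZH2 cells, against 10.4 and 8.74 CPM in control cells. MCTP2 had 3.57 and 1.69 CPM in shEZH2 cells, against 0 and 0 CPM in control cells, at least 38.3-fold higher. NR2F2, the single fall, lay in the same stretch with 101 and 87.1 CPM in shEZH2 cells, against 169 and 176 CPM in control cells. For these 8 genes the edgeR quasi-likelihood p, adjusted by Benjamini-Hochberg, ran from 0.00644 to 0.0352. The rise of the stretch was also seen in shSUZ12 cells, which share the controls, with a median of 0.54. In the direct contrast of shEZH2 with shSUZ12 the median was 0.03, and 1 of the 47 called genes of the stretch differed, SMAD6, by 1.65 ± 0.24 (edgeR adjusted p = 0.0309).

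On chromosomes 11 and 3 a stretch was lower. Between GAB2 and SDHD (chromosome 11, 78215297 to 112120013) 21 of 100 tested genes fell (21.0%, against 3.2% of all tested genes) and 1 rose, with a median of -0.68 (-0.51 and -0.75 in the libraries). YAP1, the transcriptional effector of Hippo signalling, had 130 and 68.3 CPM in shEZH2 cells, against 300 and 314 CPM in control cells. BIRC2, an inhibitor of apoptosis encoded nearby, had 68.9 and 58.9 CPM in shEZH2 cells, against 165 and 148 CPM in control cells, and PICALM, a clathrin adaptor, had 143 and 101 CPM in shEZH2 cells, against 332 and 308 CPM in control cells. FZD4, a WNT and norrin receptor, had 11.2 and 7.97 CPM in shEZH2 cells, against 36.9 and 37.9 CPM in control cells, and MAML2, a coactivator of Notch, had 15 and 6.69 CPM in shEZH2 cells, against 46.0 and 49.5 CPM in control cells. MRE11A, named above, lies there too. Between ATP11B and TM4SF19 (chromosome 3, 182793500 to 196338503) 10 of 75 tested genes fell (13.3%) and 1 rose, with a median of -0.59 (-0.55 and -0.66). IGF2BP2, a binder of mRNA, had 61.1 and 52.9 CPM in shEZH2 cells, against 118 and 124 CPM in control cells, PSMD2, a proteasome subunit, had 564 and 526 CPM in shEZH2 cells, against 1090 and 889 CPM in control cells, and SENP2, a SUMO protease, had 34.5 and 27.9 CPM in shEZH2 cells, against 62.8 and 60.9 CPM in control cells. Over these 8 genes the edgeR quasi-likelihood p, adjusted by Benjamini-Hochberg, ran from 0.00743 to 0.034. In shSUZ12 cells the medians of the chromosome 11 and 3 stretches were -0.59 and -0.52 against the same controls. The bounds of the 3 stretches were chosen after the values were seen, so they are described with no test.

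**Figure D5:**
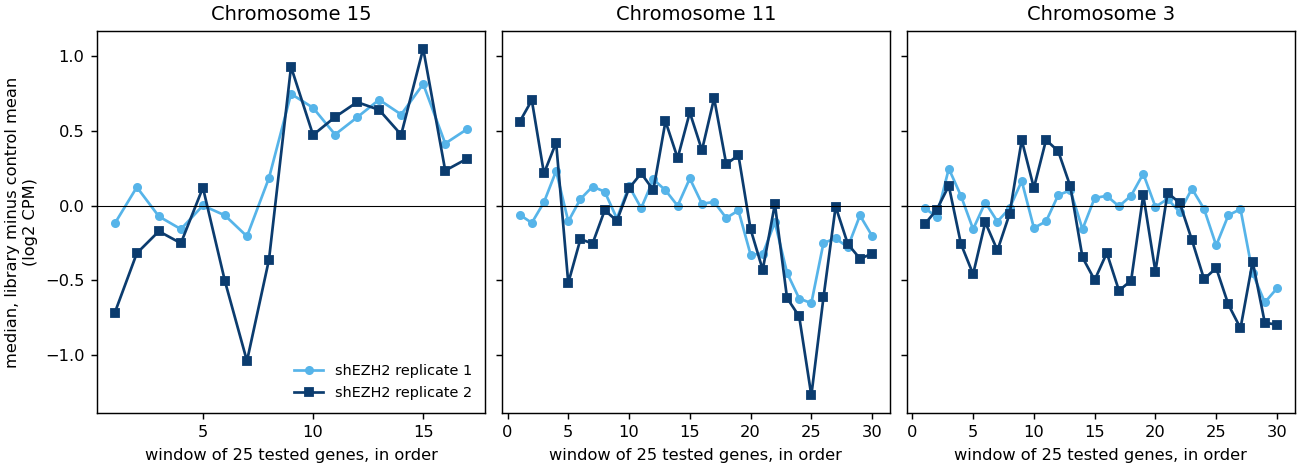
Median log2 difference from the control mean in consecutive windows of 25 tested genes along chromosomes 15, 11 and 3, in gene order, for shEZH2 replicate 1 (light) and replicate 2 (dark). The last 9 windows of chromosome 15 lie above 0 in both libraries, and a group of windows on chromosome 11 and the last windows of chromosome 3 lie below 0 in both.

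At the scale of neighbours, 8 runs of 3 or more adjacent tested genes were called in 1 direction, 3 higher and 5 lower. How many such runs the share of calls alone would give was not tested. The run of SCAND2P, WDR73 and NMB lies on the stretch of chromosome 15 described above. That of PRSS23, FZD4 and TMEM135 lies on the stretch of chromosome 11. Some neighbours overlap in their bounds, such as DDX60L and PALLD, and may share reads. IRX2, IRX1 and ADAMTS16 formed such a run on chromosome 5, and IFIT2, IFIT3 and IFIT1 on chromosome 10. RGS16, a regulator of G protein signalling, and NPL belonged to another on chromosome 1, and both rose. RGS16 had 0.771 and 0.767 CPM in shEZH2 cells, against 0.135 and 0.0475 CPM in control cells, and NPL had 1.98 and 1.79 CPM in shEZH2 cells, against 0.315 and 0.380 CPM in control cells. DDX60, DDX60L and PALLD fell together on chromosome 4, and LDB2, QDPR and LAP3 rose together on the same chromosome. DPYSL2, a cytoskeletal protein of growing axons, fell with its neighbours PNMA2 and BNIP3L, and had 94.9 and 82.8 CPM in shEZH2 cells, against 199 and 236 CPM in control cells. Among RGS16, NPL, DDX60, DDX60L, PALLD, QDPR, LAP3, DPYSL2, PNMA2 and BNIP3L the edgeR quasi-likelihood p, adjusted by Benjamini-Hochberg, ran from 0.0101 to 0.0447. By gene class, 900 of 12630 protein-coding genes were called (7.13%), against 15 of 235 long non-coding genes (6.38%), 4 of 185 antisense genes and 6 of 200 pseudogenes.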

How the data were processed

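The deposited file of the authors holds raw read counts per gene for the 6 libraries, from a stranded poly(A) kit per the labels' protocols. STAR, R 3.2.5, GenomeStudio 2010.1 and GRCh38 are named in the submitters' processing notes. The version of the aligner, the annotation counted and its strand option were not given in the sources used here. Overlapping, antisense and near-identical genes may therefore share reads. Of 29748 entries 4 name no gene (16.5 to 21.0% of all counts) and enter no library size. Of 29744 genes, 8814 had no count, and 14192 passed edgeR's filterByExpr.

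CPM were computed here from the deposited counts with TMM scaling, and per-library log2 differences used a prior count of 0.5. The test was edgeR 4.0.16 (R 4.3.3), a robust quasi-likelihood fit over all 6 libraries with 3 residual degrees of freedom, with Benjamini-Hochberg adjustment over 14192 genes and a threshold of 0.05. An exact permutation test of 2 against 2 libraries cannot go below p = 0.333. Intervals and floors cover counting error only, at 95% confidence (exact). Alternatives were RLE and upper quartile scaling, other filters, the comparison's 4 libraries alone, DESeq2 1.42.0, a replicate block, removal of each library's trend with length (lowess, span 0.3), and leaving out each library. Positions and lengths came from GENCODE v29 (GRCh38), which gave a length to 94.2% of tested genes, and promoters from RefSeq (GRCh38.p14).

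Replicate numbers are in the labels, but nothing says that they mark a shared culture or day. The genes and lists were chosen with earlier results of these data known. Named genes are the targeted genes, the 20 largest rises and 20 largest falls past 2-fold in both libraries and with a mean of 5 CPM or more in 1 group, the 4 largest called rises and falls of each list, and the member with the highest CPM in a list with no call. That gave 152 genes, of which 147 were called; further called members, chromosome neighbours and EGFR were chosen after their values were seen. Some genes counted in the lists are not reported here by name.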

Additional observations from a re-analysis of the deposited data

Results flagged for a closer look

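Reads assigned to more than 1 place, which entered no comparison, made up 8.27 and 10.4% of all counts in the shEZH2 libraries, above the 7.21 and 7.64% of the control libraries. The higher value was in replicate 2, the library with the trend over transcript length. The part of these reads in any gene's level was not tested.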

How the results depend on the processing

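The 957 calls became 1471 without a filter, 216 with the 4 shEZH2 and control libraries alone, 1976 with DESeq2 and 2305 with the length trend removed. Leaving out 1 library gave 5 to 7853 calls: few without a control or shSUZ12 library, which leaves 2 residual degrees of freedom with the divergent shEZH2 libraries in the spread, and most without an shEZH2 library. The 590 calls past 2-fold in each shEZH2 library became 216 with 4 libraries alone, and 5 to 219 when a control or shSUZ12 library was left out. The 2687 genes called in 1 direction with each shEZH2 library alone ranged from 1949 (DESeq2) to 2839 (no filter). Of the 147 called genes named by the rule, 7 and 5 passed when control replicate 1 or 2 was left out, 76 and 74 when shSUZ12 replicate 1 or 2 was, and 75 with the 4 libraries alone. At least 139 passed under the other settings, and 0 changed direction. EZH2 ranged from -1.83 to -1.61 on the log2 scale when 1 library was left out, and did not pass without a control library. ITGA6, not called, had a log2 fold change of -0.28 with all libraries, 0.13 without shEZH2 replicate 2 and -0.79 without shEZH2 replicate 1; the cause was not tested.

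Same-numbered libraries deviated together with correlations of 0.111, 0.0808 and 0.145, and not every one was over 0.1, so the numbers were not taken to pair the libraries; whether they share a culture or day is not stated. With the number as a replicate block, 1233 genes were called against control, with all 147 named calls among them, and 368 in the contrast of shEZH2 with shSUZ12, against 216 without it. That contrast gave 718 calls without a filter, 1304 with DESeq2, 1260 with the length trend removed, and 0 to 7590 when 1 library was left out; the cause was not tested. Scaling moved the median of all genes from -0.014 with TMM to 0.0037 with RLE and 0.032 with upper quartile scaling. Libraries of 20568174 to 22782742 gene counts do not resolve levels under the floor of 3 counts, so genes at 0 there may be expressed below it.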
